A study of Rattus norvegicus with 48 samples.

Results

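Serum and ulna bone of the same kind of rat were compared: the placebo-treated animals labelled WT. All libraries with the group label WT and the treatment label Placebo were taken, which gave 5 serum and 4 ulna bone libraries, 9 of the 48 libraries of the series. The study addressed miRNAs in the bone disease of type 2 diabetes, with Zucker Diabetic Fatty (ZDF) rats as the diabetic animals. According to its methods the WT rats were male Zucker lean rats (ZDF +/+), fed a high-fat, high-carbohydrate diet, with a surgical defect in the femur, and placebo was water. The defect, the diet and the sex were shared by all rats used here, and the samples were collected at 12 weeks of treatment. The age of the animals is not among the labels. For comparison, the same contrast was made in placebo-treated ZDF rats (ZDF fa/fa, which lack a working leptin receptor) and in WT rats given parathyroid hormone (PTH), each again with 5 sera and 4 bones. The bones in these contrasts were taken from rats that also gave serum. The labels do not say which bone belongs to which serum, so the libraries were treated as independent.

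MiRNAs are short RNAs cut from hairpin precursors. Each hairpin can give a product from its left (5p) and its right (3p) arm, and the seed, bases 2 to 8 from the 5′ end, guides the product to its target transcripts. Serum miRNAs are protected from degradation by proteins and vesicles and come from blood cells, the vessel wall and organs such as the liver, whereas a ground long bone holds osteoblasts, osteocytes, cartilage, vessels, marrow and any muscle that adheres to it. Because bulk RNA was sequenced, fewer cells of a type and less RNA per cell cannot be told apart. Serum and bone also went through different steps before library preparation, so tissue and extraction cannot be told apart. In the text the species prefix of the miRNA names (rno-) is left out.

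The sequences of the miRNAs on which the main results turn are shown first, from RefSeq (assembly GRCr8), 5′ to 3′, with the seed in capitals. The first 5 have the same seed but opposite tissue differences, and the next 2 are the arms of 1 hairpin that are also opposite. The following 3 are muscle miRNAs with a shared seed, then 3 members of the let-7 family that changed to different degrees, and then the liver miRNA and the miRNA with the largest excess in bone.
miR-16-5p: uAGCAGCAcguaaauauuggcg
miR-15b-5p: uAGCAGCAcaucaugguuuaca
miR-195-5p: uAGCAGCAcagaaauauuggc
miR-497-5p: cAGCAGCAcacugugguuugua
miR-322-5p: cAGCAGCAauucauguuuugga
miR-142-5p: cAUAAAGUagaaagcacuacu
miR-142-3p: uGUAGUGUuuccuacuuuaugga
miR-1-3p: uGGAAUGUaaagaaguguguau
miR-1b: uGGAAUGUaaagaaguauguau
miR-206-3p: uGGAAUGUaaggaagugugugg
let-7c-5p: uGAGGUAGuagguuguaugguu
let-7f-5p: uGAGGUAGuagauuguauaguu
let-7i-5p: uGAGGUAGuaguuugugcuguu
miR-122-5p: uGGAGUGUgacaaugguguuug
miR-196b-5p: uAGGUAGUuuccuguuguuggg

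The sera held 64957 to 205664 reads on miRNAs and the bones 195045 to 952131, which was 1.58 to 2.89% of all reads in serum and 5.06 to 14.8% in bone (exact permutation test, p = 0.0159, the smallest that the divisions of 9 libraries into 5 and 4 allow; adjusted p = 0.0476 over 6 library measures). Of the 763 mature miRNAs listed, 575 had at least 1 read, 450 in serum and 546 in bone. At the depth of the smallest library, 287 to 316 miRNAs were expected in a serum library and 313 to 335 in a bone library (exact permutation test, p = 0.0317, adjusted p = 0.0476), so that bone also held more miRNAs at equal depth, but this p rose above 0.05 when any of 7 of the 9 libraries was left out. The most abundant miRNA took 9.87 to 20.9% of the miRNA reads in serum and 12.8 to 32.3% in bone, ranges that overlapped. Between libraries of a tissue, the coefficient of variation was 47.5% in serum and 39.3% in bone for the median miRNA tested. Levels are given below as counts per 1000000 miRNA reads (CPM) after TMM scaling, which makes the bulk of the miRNAs comparable between libraries. All differences are therefore relative to the other miRNAs of the same library, and they are given as serum minus bone on the log2 scale.

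Serum and ulna bone had different leading miRNAs. Those of serum were miR-191a-5p, miR-16-5p, miR-486, miR-451-5p and miR-92a-3p, and those of bone were miR-133a-3p, miR-143-3p, miR-26a-5p and miR-181a-5p. MiR-191a-5p averaged 137918 CPM (SD 76651, n = 5) in serum and 9776 CPM (SD 1145, n = 4) in bone, and miR-133a-3p averaged 15527 CPM (SD 16327) in serum and 180041 CPM (SD 130411) in bone. Of the 8 most abundant miRNAs of each tissue, only miR-29a-3p belonged to both.

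Of 222 miRNAs tested, 148 (66.7%) differed between the tissues at an FDR below 0.05 by edgeR's quasi-likelihood test, 73 (32.9%) with more in serum and 75 (33.8%) with more in bone. The groups did not overlap in 131 (59%) of the 222, with every serum above every bone in 66 (29.7%) and every bone above every serum in 65 (29.3%). The difference reached 3 on the log2 scale in 32 miRNAs toward serum and in 29 toward bone. When the counts were scaled to all reads of a library in place of its miRNA reads, the median difference moved by -2.46, with 12 miRNAs higher in serum and 157 higher in bone, since miRNAs were a smaller share of the serum reads. The lists of tissue miRNAs used below have to be read against these shares, because most miRNAs differed.

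**Figure D1:**
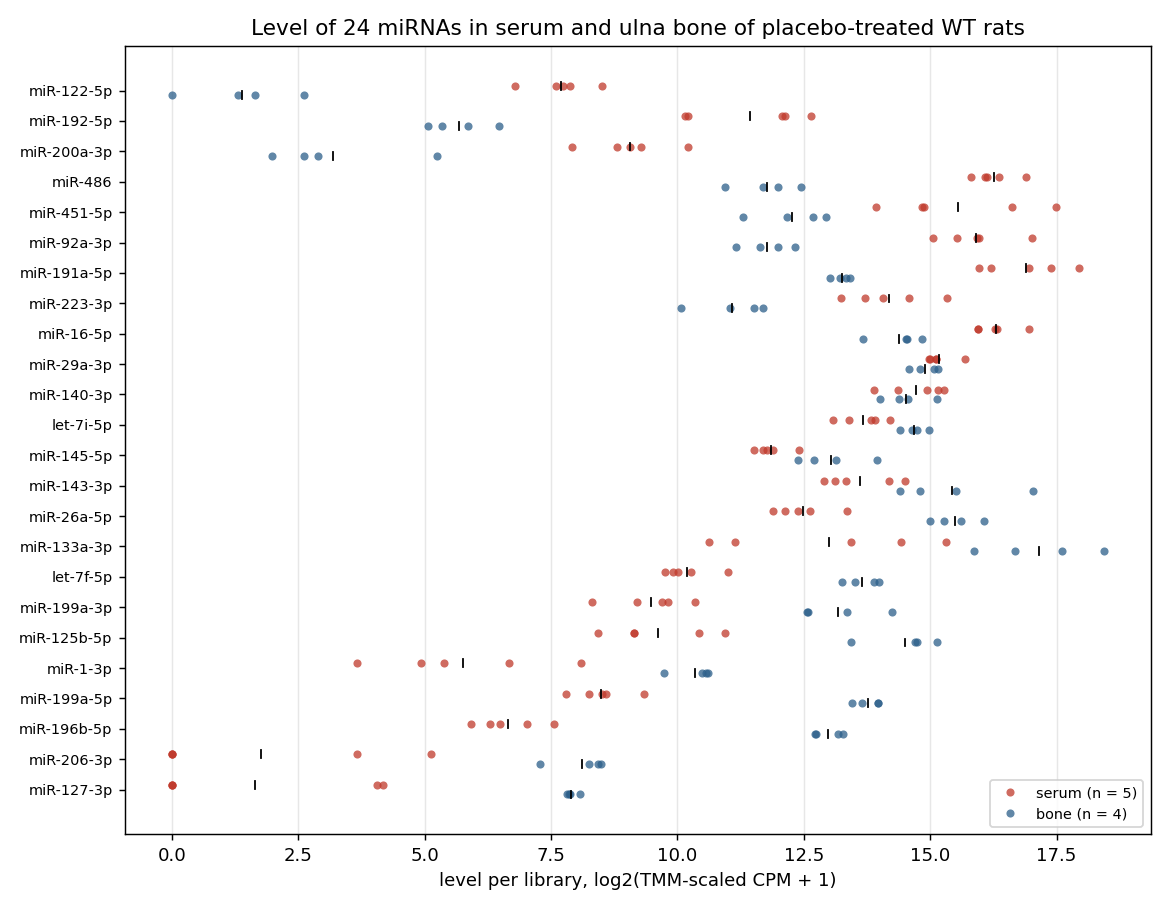
Level of 24 miRNAs, as log2(CPM + 1) with TMM scaling (horizontal axis), in each of the 5 serum (red) and 4 bone (blue) libraries; black ticks are group means. From top to bottom the order runs from miRNAs higher in serum, through miR-29a-3p and miR-140-3p, in which the tissues overlap, to miRNAs higher in bone. Among the latter, the tissues also overlap in miR-143-3p and miR-145-5p.

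Liver miRNAs were far higher in serum. The liver list has 8 members with a read, of which 4 had enough to be tested, and those with hardly a read in bone could be tested only because they were high in serum. All 4 were higher in serum, with a median of 7.46, or 6.45 with the 2 members that had no read in bone set to their bound (median over all 222 miRNAs, -0.10). With every miRNA that had a read tested, the same number of the 8 was called, with a median of 4.49. That fit is known to call miRNAs simulated without change, so its calls add no support. MiR-122-5p, the dominant miRNA of hepatocytes, reached 234, 362, 213, 193 and 109 CPM in the sera and 5.13, 2.13, 1.47 and 0 CPM in the bones. The bones together held 3 of its reads against 123 in serum, a ratio of 159 (95% counting interval 53.2 to 782; adjusted p = 2.56e-06 by edgeR). Its partner arm miR-122-3p had 60 reads in the sera and none in bone, which makes it at least 77.6-fold higher when 3 reads over the 4 bones are taken as the floor. MiR-802-5p, also a liver miRNA, was at least 98.3-fold higher by the same floor, with 76 serum reads and none in bone. MiR-192-5p, found in liver and gut, was the most abundant of them, with 1137 to 6433 CPM (median 4313) in serum and 32.3 to 87.2 CPM in bone (difference 6.06, SE 0.67, adjusted p = 3.36e-06). For each of these 4, every serum lay above every bone, and the exact permutation test gave p = 0.0159, as it did for each miRNA named below whose groups did not overlap. Any 5 and 4 libraries without overlap give this value, so it only restates the lack of overlap, by which some miRNAs were chosen. It is not adjusted for the number of miRNAs named.

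Other miRNAs of epithelial and endocrine organs were also higher in serum. MiR-375-3p, a miRNA of pancreatic islets, had 1998, 409, 213, 845 and 179 CPM in serum and 20.5, 51, 122 and 32.3 CPM in bone (difference 3.64, SE 0.77, adjusted p = 0.000611; 2.75 without serum 1 and 4.23 without bone 3). It was the only one of the 10 members of its list with enough reads to be tested. Of the miR-200 family, which maintains the epithelial state, 8 members had a read and 4 had enough to be tested. All 4 were higher in serum. In bone 1, bone 2 and bone 3 the list held only 0.00205 to 0.00231% of the miRNA reads. Its members could thus be tested only because they were high in serum, and their common direction adds no support. MiR-200a-3p showed 242 to 1182 CPM in serum and 2.95 to 36.9 CPM in bone (difference 5.35, SE 0.76, adjusted p = 1.85e-05). MiR-429 (difference 4.28) and miR-141-3p (3.28) did not overlap between the tissues either. Without bone 4 the differences were 6.89 for miR-200a-3p, 6.76 for miR-429, 4.43 for miR-141-3p and 2.90 for miR-200c-3p. MiR-200c-3p overlapped and had 38 reads in the sera in all, and its difference of 1.71 (adjusted p = 0.0266) was no longer called without bone 2 (1.55, adjusted p = 0.0834) or bone 3 (1.44, adjusted p = 0.106). Together the miR-200 list made up 0.0439 to 0.179% of the serum miRNA reads, so these are rare miRNAs in both tissues.

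Erythrocyte miRNAs were a large part of the serum population. The list took 7.49 to 25.0% of the miRNA reads in serum and 0.767 to 1.35% in bone. Of its 4 members, 3 were higher in serum, against 32.9% of all 222 miRNAs. MiR-451-5p, which is made without Dicer and accumulates in red cells, had 30050, 15620, 100092, 29377 and 185177 CPM in serum and 7854, 4590, 6565 and 2505 CPM in bone (difference 3.74, SE 0.70, adjusted p = 0.000236; 3.08 without serum 5). The sera fell well apart, with serum 3 and serum 5 far above the other three, but every serum was above every bone. Red cell lysis in serum is commonly gauged by dividing miR-451-5p reads by those of miR-23a-3p, and on the log2 scale this came to 3.24 in serum 3, slightly more in serum 5 and -0.51 to 0.79 in the other three; the part of red cell lysis in these differences was not tested. MiR-486, another red cell miRNA, was more even at 57114 to 121583 CPM in serum and 1975 to 5598 CPM in bone (difference 4.43, SE 0.46, adjusted p = 2.56e-06). The fourth member, miR-144-5p, did not pass the test (difference 0.09, adjusted p = 0.872), whereas the other arm of its hairpin, miR-144-3p, did (3.35, SE 0.62, adjusted p = 0.000195; 4.22 without bone 1). With the 4 members left out before scaling, 144 miRNAs were called in place of 148.

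The miR-17-92 cluster and its relatives, which drive proliferation in many cell types, were higher in serum as a group. Of 14 tested members 12 were higher in serum and none in bone, with a median of 3.10. Among all 222 miRNAs, 32.9% were higher in serum and 33.8% in bone. The list took 14.6 to 23.7% of the serum reads and 1.19 to 2.94% of the bone reads. MiR-92a-3p had 132926, 62024, 34285, 63600 and 47128 CPM in serum and 2298, 3195, 5132 and 4043 CPM in bone (difference 4.21, SE 0.50, adjusted p = 5.17e-06). No bone came near the lowest serum. MiR-17-5p (3.77), miR-93-5p (3.29), miR-25-3p (3.27) and miR-19b-3p (2.82, or 3.62 without bone 1) were also higher in serum without overlap. MiR-191a-5p (3.82, SE 0.49) and miR-425-3p (3.84, SE 0.44), which share a host gene, had the same size of difference although miR-425-3p was far less abundant, with 791 to 2115 CPM in serum. Further miRNAs with a large excess in serum were miR-130b-3p, 21.1-fold higher, and miR-330-3p, 14.0-fold higher, and miR-128-3p, which is abundant in brain but widely expressed, was higher by 3.19 on the log2 scale.

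Leukocyte and marrow miRNAs were split. Of 9 tested, 5 were higher in serum, 1 in bone and 3 did not pass. Among all 222 miRNAs, 32.9% were higher in serum and 33.8% in bone. The list took 2.14 to 6.73% of the serum reads and 0.712 to 1.36% of the bone reads. MiR-223-3p, a miRNA of neutrophils and monocytes that platelets also carry, had 24476, 41486, 9586, 13473 and 17109 CPM in serum and 3294, 2098, 2913 and 1070 CPM in bone (difference 3.18, SE 0.51, adjusted p = 5.35e-05). The lowest serum was still above the highest bone. MiR-342-3p was higher in serum by 2.49 (SE 0.54, adjusted p = 0.000707) without overlap, and miR-150-5p, typical of mature lymphocytes, by 1.46 (SE 0.45, adjusted p = 0.00919) with overlap, as serum 3 lay within the bone range. MiR-146a-5p, induced by inflammatory signals, gave a difference of 0.64 that did not pass (adjusted p = 0.162), and passed without serum 5 (0.89, adjusted p = 0.0451). The one member higher in bone was miR-142-3p, described with its other arm below.

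Striated muscle miRNAs took the largest share of the reads among the 17 lists in bone 2, bone 3 and bone 4, and in bone 1 the smooth muscle list did. The list took 9.95, 15.0, 25.9 and 36.2% of the miRNA reads in the 4 bones and 0.75 to 5.42% in the sera. Of 10 tested members, 8 were higher in bone, against 33.8% of all 222 miRNAs, and the list median was -3.42. MiR-133a-3p, one of the main miRNAs of skeletal and heart muscle, had 59658, 105579, 199997 and 354930 CPM in bone and 1589, 2266, 40715, 11072 and 21994 CPM in serum (difference -3.54, SE 0.81, adjusted p = 0.00113). Among the bones, the order of the muscle share was that of the miRNA read totals, and serum 3 and serum 5 were again the highest sera. MiR-1-3p (difference -3.83) and its near copy miR-1b (-4.28) did not overlap between the tissues, and neither did miR-133b-3p (-3.40). MiR-206-3p, which is largely restricted to skeletal muscle, had 155 to 358 CPM in bone and only 6 reads over the 5 sera (difference -4.76, SE 0.72, adjusted p = 3.12e-05). Without serum 3 the differences were -4.29 for miR-133a-3p, -4.78 for miR-1-3p, -5.07 for miR-1b, -4.13 for miR-133b-3p and -5.98 for miR-206-3p. MiR-378a-3p, abundant in muscle and other oxidative tissues, was higher in bone by 1.29 on the log2 scale with overlapping groups (adjusted p = 0.00762). MiR-208b-3p and miR-499-5p, encoded within slow and cardiac myosin genes and named here after their values were seen, gave 0.08 (adjusted p = 0.933) and -0.43 (adjusted p = 0.642). With the list left out before scaling, 147 miRNAs were called, 68 higher in serum and 79 in bone. The part of adhering muscle in these values was not tested.

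Smooth muscle miRNAs were also higher in bone, in all 4 tested, against 33.8% of all 222 miRNAs. MiR-143-3p had 134670, 28645, 21659 and 46841 CPM in bone and 23366, 8867, 18644, 10375 and 7674 CPM in serum (difference -2.07, SE 0.53, adjusted p = 0.00266). Bone 1 was far above the other bones, and bone 3 lay just below serum 1. Without bone 1 the difference was -1.23 (adjusted p = 0.0217), and 3 of the 4 members were called, with a median of -1.35 in place of -1.80. It was also 3 of 4 without serum 2 or serum 4. MiR-145-5p, from a hairpin encoded beside miR-143, overlapped as well (-1.28, SE 0.38, adjusted p = 0.00636).

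Mesenchymal miRNAs, which mark the stromal and bone-forming cells that the label implies, took a larger share of the reads in bone than in serum. Their share in bone was below that of the muscle miRNAs, and the directions of the members were mixed. The osteoblast and mesenchyme list took 1.97 to 5.03% of the bone reads and 0.225 to 0.468% of the serum reads. Of 10 tested members, 5 were higher in bone, 2 were higher in serum and 3 did not pass. Over all 222 miRNAs, 33.8% were called higher in bone and 32.9% higher in serum. MiR-199a-5p had 16037, 16047, 12867 and 11278 CPM in bone and 222, 362, 646, 385 and 304 CPM in serum (difference -5.20, SE 0.41, adjusted p = 9.73e-08). The levels were even within each tissue and far apart between them. MiR-199a-3p from the other arm was higher in bone by 3.74 on the log2 scale, and miR-204-5p, which restrains the osteoblast factor Runx2, by 4.93 (5.57 without serum 3), with 4 reads in all the sera. MiR-214-3p, an inhibitor of bone formation encoded next to miR-199a, was higher in bone but overlapped (-1.88, SE 0.51, adjusted p = 0.0038). MiR-218a-5p, which promotes osteoblast differentiation, had 582 to 985 CPM in bone, and 140, 58.4, 1080, 237 and 226 CPM in serum. Its difference of -1.21 did not pass (adjusted p = 0.0931), and without serum 3, the one serum above all bones, it was -2.29 (adjusted p = 0.00059). It was also called with all miRNAs that had a read (-1.37, adjusted p = 0.0147), with independent filtering (adjusted p = 0.011), with DESeq2 (-1.44, adjusted p = 0.044), with totals of all reads and at the study's FDR of 0.2, which makes 6 of 23 alternatives. The fit with all miRNAs that had a read is known to call miRNAs simulated without change, and independent filtering rests on it. Totals of all reads moved the median of all miRNAs by -2.46. The members higher in serum were miR-322-3p (1.48) and miR-138-5p (2.26, adjusted p = 0.000464), the latter an inhibitor of osteoblast differentiation named after its value was seen.

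MiR-196b-5p, encoded within a Hox gene cluster and expressed in posterior and limb tissues, had the largest excess in bone, with 6720, 9932, 6834 and 9269 CPM against 129, 187, 59.5, 88.9 and 77.9 CPM in serum (difference -6.24, SE 0.45, adjusted p = 4.36e-08). Even the highest serum was far below the lowest bone. MiR-10b-5p from another Hox cluster was higher in bone by 1.59 on the log2 scale (adjusted p = 0.00453). The imprinted Dlk1-Dio3 cluster, whose many miRNAs are active in development and muscle, was sparse: 55 of its 60 listed members had a read, but only 4 had enough to be tested. All 4 were higher in bone, with a median of -3.25. Members with hardly a read in serum could be tested only because they were high in bone, so the filter favoured this direction. MiR-127-3p was read at 224 to 268 CPM in bone and at 0, 0, 17, 0 and 15.6 CPM in serum (difference -5.01, SE 0.68, adjusted p = 1.34e-05; -5.65 without serum 3). In serum 1, serum 2 and serum 4 it had no read, and a floor of 3 reads is 14.6 to 46.2 CPM there before TMM scaling.

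Further abundant miRNAs were higher in bone. MiR-125b-5p had 11025, 36106, 27442 and 26682 CPM in bone and 345, 561, 1369, 563 and 1979 CPM in serum (difference -4.71, SE 0.56, adjusted p = 5.17e-06), and miR-99a-5p, often encoded beside it, was higher in bone by 2.89 on the log2 scale (3.57 without serum 3). Neither overlapped between the tissues. MiR-338-3p (-4.53, or -3.75 without bone 1), miR-26a-5p (-2.97) and miR-181a-5p (-2.62) also had every bone above every serum. MiR-190a-5p had 3 reads in the sera and 388 in the bones, a ratio of 33.3 (95% counting interval 11.3 to 162). MiR-9a-5p, a neural miRNA, was higher in bone by 2.10 on the log2 scale (adjusted p = 0.0149; 2.94 without serum 3), opposite in direction to miR-128-3p of the same list.

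Several miRNAs of bone biology did not separate the tissues. MiR-29a-3p, which limits collagen synthesis and is abundant in osteoblasts, had 35747, 32899, 35433, 32445 and 52613 CPM in serum and 36295, 34359, 24674 and 28329 CPM in bone (difference 0.29, SE 0.33, adjusted p = 0.441). The ranges overlapped, and the same held for miR-29b-3p (-0.01, SE 0.42) and miR-29c-3p (-0.27, SE 0.41). MiR-140-3p, the major arm of the cartilage hairpin miR-140, had 15239 to 39426 CPM in serum (median 31392) and 16442 to 36178 CPM in bone (difference 0.23, SE 0.38, adjusted p = 0.612). The other three members of the cartilage list were higher in bone: miR-140-5p by 2.34 on the log2 scale (adjusted p = 5.55e-05), miR-455-3p by 2.75 with overlap, and miR-455-5p by 1.33. The call of miR-455-5p (adjusted p = 0.0192) was lost without bone 2 (adjusted p = 0.0651) or serum 4 (adjusted p = 0.0534). A p above the threshold does not show equal levels, and scaled to all reads the 3 miR-29 members and miR-140-3p were higher in bone.

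**Figure D2:**
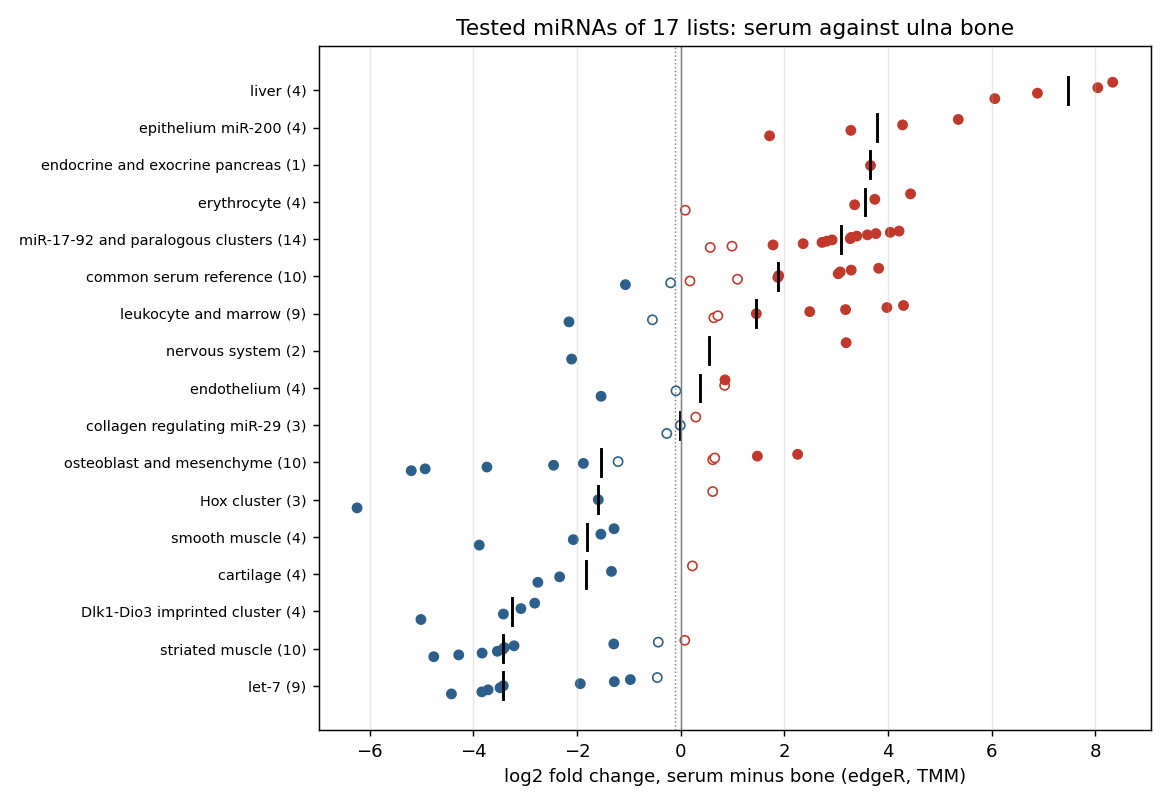
Log2 difference, serum minus bone (horizontal axis), of each tested miRNA of 17 lists, with the number tested in parentheses; filled points passed the edgeR test at an FDR below 0.05, red toward serum and blue toward bone, open points did not, and black bars are list medians. The dotted line is the median of all 222 miRNAs at -0.10. By the median of tested members, the liver list lies farthest toward serum. The let-7, striated muscle and Dlk1-Dio3 lists lie farthest toward bone. The filter favoured the positions of the liver, miR-200 and Dlk1-Dio3 lists, whose rare members were tested only where high. With every miRNA that had a read tested, the liver median was 4.49.

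The let-7 family, which represses growth and pluripotency genes, was higher in bone in 8 of its 9 members, with a median of -3.42. Among all 222 miRNAs, 33.8% were higher in bone. The size of the difference varied widely between members with the same seed. Let-7c-5p had 4868, 23498, 7962 and 8109 CPM in bone and 292, 444, 808, 222 and 810 CPM in serum (difference -4.42, SE 0.55, adjusted p = 6.75e-06). Let-7f-5p (-3.42), let-7b-5p (-3.83) and let-7a-5p (-3.48) were similar to it. Without bone 2, let-7c-5p gave -3.75 and let-7b-5p -3.06. Let-7i-5p, the most abundant member in both tissues, had 21651 to 32216 CPM in bone and 8669 to 18822 CPM in serum (difference -0.97, SE 0.34, adjusted p = 0.0192), a call that was lost without serum 2 (adjusted p = 0.0586), serum 4 (0.0631) or bone 2 (0.066). Let-7g-5p did not pass (-0.45, adjusted p = 0.312). In terms of the family's own reads, let-7i-5p was 64.8 to 81.4% in serum and 34.3 to 48.4% in bone, and let-7c-5p was 1.25 to 5.21% in serum and 9.11 to 25.0% in bone, both without overlap. These miRNAs differ by few bases, so that reads could be assigned to the wrong member with 1 mismatch allowed, and the values of single members are uncertain; the same applies to miR-1-3p and miR-1b and to miR-133a-3p and miR-133b-3p.

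The miR-15/16 family, of which 5 members with the seed AGCAGCA are shown at the top, was divided between the tissues. MiR-16-5p, abundant in blood cells, had 62922, 82247, 80155, 63155 and 127905 CPM in serum and 13010, 29395, 23702 and 23676 CPM in bone (difference 1.89, SE 0.39, adjusted p = 0.000524). MiR-15b-5p, encoded beside it, was higher in serum by 3.66 (adjusted p = 0.000167; 4.27 without bone 2). MiR-15a-5p, counted with the family by its name because it was not matched to a sequence, was higher in serum by 1.76 (SE 0.35, adjusted p = 0.000393). In the opposite direction, miR-195-5p had 1231, 2734, 1210 and 1209 CPM in bone and 23.4, 23.4, 136, 59.3 and 101 CPM in serum (difference -4.52, SE 0.57, adjusted p = 6.82e-06). MiR-497-5p, from the same cluster as miR-195, followed it (-2.32, adjusted p = 0.000169), as did miR-322-5p (-2.45, adjusted p = 0.000111). None of the 6 overlapped between the tissues; miR-15a-5p, miR-15b-5p and miR-497-5p were named after their values were seen. As a share of the reads of these 6, miR-16-5p made up 82.0 to 86.0% in serum and 47.3 to 62.1% in bone, miR-15a-5p 10.7 to 13.3% in serum and 8.11 to 10.2% in bone, and miR-497-5p 1.22 to 4.44% in serum and 24.2 to 35.2% in bone. The shares do not depend on the scaling between libraries.

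**Figure D3:**
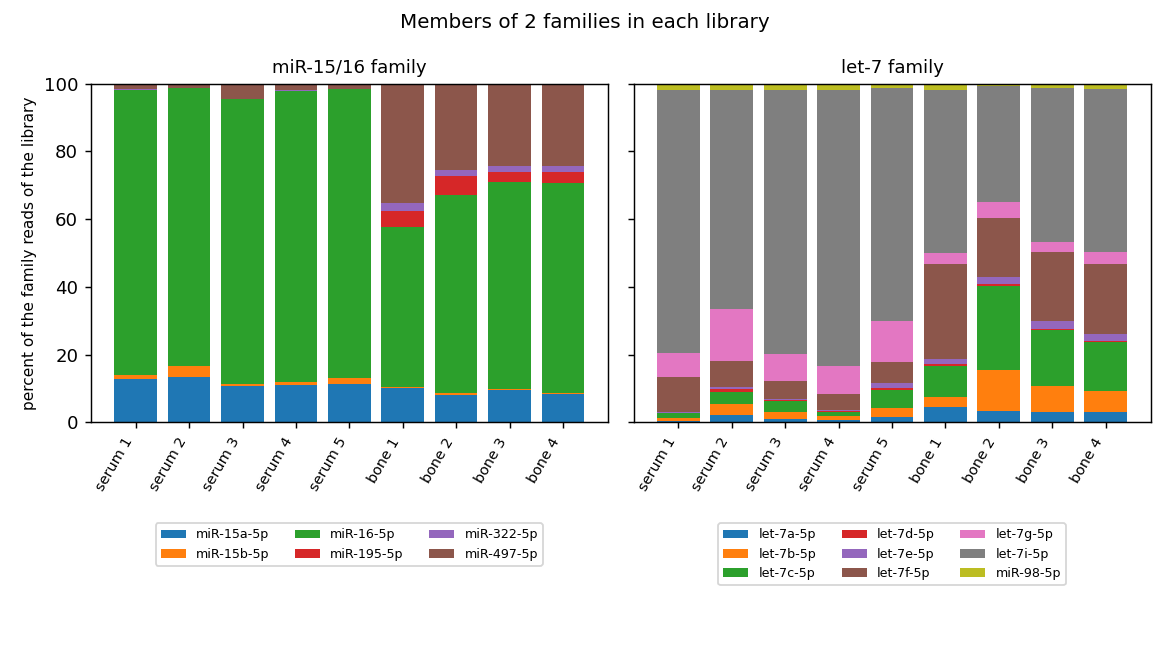
Percent of the reads of a family's tested members (vertical axis) that each member took in the 5 serum and 4 bone libraries, for 6 members of the miR-15/16 family (left) and 9 of the let-7 family (right). MiR-16-5p and let-7i-5p take the larger share in serum, and miR-497-5p, let-7c-5p and let-7f-5p a larger share in bone.

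The other seed families were counted over the members matched to a sequence, where 3 or more of these were tested. The seed AAAGUGC (miR-17 family) had 5 of 5 members higher in serum, and AUUGCAC (miR-25 and miR-92) had 4 of 5. GGAAUGU (miR-1 and miR-206) had 3 of 3 higher in bone and CCCUGAG (miR-125 and miR-351) 3 of 3, against the 32.9 and 33.8% of all miRNAs called in each direction. GUAAACA (miR-30) and GGCAGUG (miR-34 and miR-449) each had 2 of 3 higher in bone and CAGUGCA (miR-148 and miR-152) 1 of 3, none of these with a call in serum. ACAUUCA (miR-181) was divided, with 1 of 4 higher in serum and 2 in bone, and AGCACCA (miR-29) had no call in 3. MiRNAs encoded within 10000 bases of each other, by the RefSeq gene positions on GRCr8, had calls in both directions in 3 of 20 clusters with 3 or more tested products. All 4 tested products of miR-191 and miR-425 and all 3 of miR-15b and miR-16 were higher in serum, and all 3 of miR-199a-2 and miR-214, all 3 of miR-497 and miR-195 and all 4 of miR-143 and miR-145 were higher in bone. The clusters with both directions were let-7a-1 to let-7d, miR-23b to miR-24-1 and miR-450a-1 to miR-322. Some products are encoded at more than 1 place and are counted in each. Over the 199 miRNAs matched to RefSeq, the GC content had medians of 47.6% in those higher in serum and 45.5% in those higher in bone, against 45.5% in those not called, and the length had a median of 22 bases in each.

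The ratio of both arms of a hairpin is measured within a library and does not depend on scaling. Where an arm has few reads it does depend on depth, through the pseudocount of 0.5, and the tissues differed in depth. Of 76 hairpins with at least 20 reads in each library, 25 (32.9%) differed in arm ratio between serum and bone by limma at an FDR below 0.05, 8 (10.5%) with more 5p in serum and 17 (22.4%) with less, and 23 (30.3%) did not overlap; without bone 4 it was 16 hairpins. Among the 28 hairpins with at least 3 reads for each arm in every library, 17 were called, 7 with more 5p in serum and 10 with less. MiR-142, a hairpin specific to blood cells, differed most. Its 5p arm made up 88.4, 95, 91.0, 94.4 and 94.2% of the reads of both arms in serum and 9.14, 19.0, 21.3 and 20.1% in bone (log2 change of the 5p to 3p ratio 6.01, SE 0.51, adjusted p = 4.46e-07). The dominant arm was thus 5p in every serum and 3p in every bone. By level, miR-142-5p was higher in serum (2671 to 11461 CPM against 137 to 477 CPM) and miR-142-3p higher in bone (547 to 4745 CPM against 242 to 631 CPM; difference -2.15, or -1.16 without bone 1).

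Further hairpins changed their dominant arm. MiR-322 had 13.5 to 43.5% 5p in serum and 79.8 to 81.2% in bone (change -3.95, SE 0.53, adjusted p = 5.05e-05), with the highest serum value in serum 5. MiR-151 had 6.25 to 42.4% in serum and 61.3 to 76.8% in bone (change -3.41, SE 0.62, adjusted p = 0.000553), with few reads, down to 3 for an arm in a library. MiR-126a, a miRNA of endothelial cells and platelets, had 54.9 to 70.7% 5p in serum and 26.2 to 27.8% in bone (change 2.36, SE 0.45, adjusted p = 0.000765). In miR-322, miR-151 and miR-126a the serum and bone ranges lay on either side of an even split. The 3p arm of miR-126a was higher in bone (difference -1.54, SE 0.34, adjusted p = 0.000832), and its 5p arm was higher in serum by 0.85 (adjusted p = 0.0456), a call that held in only 9 of 23 alternatives. It was lost without serum 1, serum 5, bone 2, bone 3 or bone 4 (adjusted p = 0.0545 to 0.106), and also with RLE (adjusted p = 0.0682), read totals (0.113), all miRNAs with a read (0.223), independent filtering (0.176), the 8 groups in one fit (0.0662), DESeq2 (0.067), the muscle list left out (0.0999) and against a fold change of 2. MiR-361 kept 5p as the larger arm in both, with 90.9 to 97.6% in serum and 57.1 to 77.5% in bone (change 3.54, SE 0.54, adjusted p = 0.000182). MiR-144 kept 3p as the larger arm in serum, at 3.51 to 17.4% 5p, and was close to even in bone, at 32.3 to 50.9% (change -3.40, SE 0.57, adjusted p = 0.00041). MiR-144 and miR-126a were picked after their values were seen. For miR-26a and miR-20a a change was also called (-5.89 and 3.44), but 1 arm had libraries without a read, and for miR-26a the 3p arm had 8 reads over all 9 libraries.

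**Figure D4:**
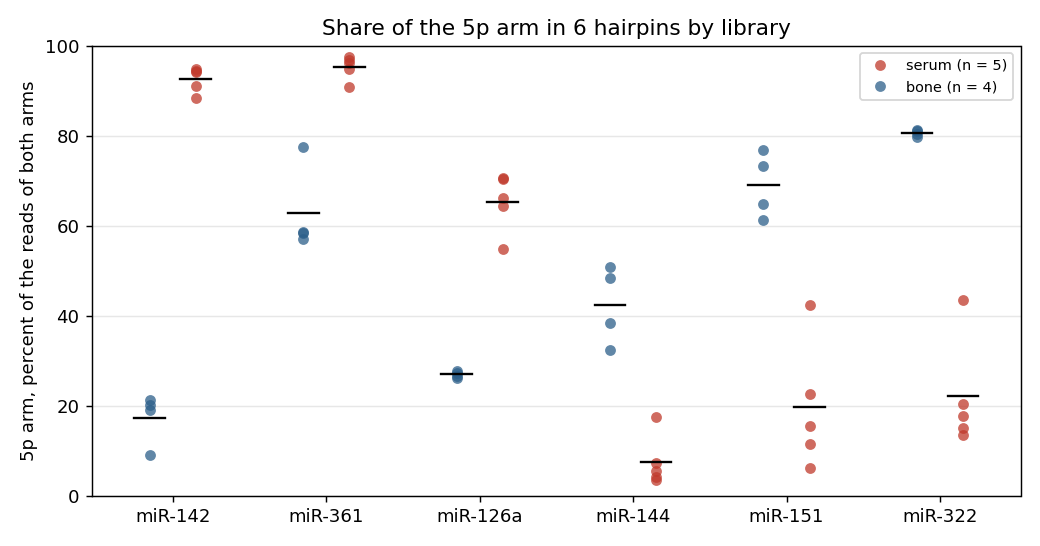
Share of the 5p arm among the reads of both arms (vertical axis, percent) for 6 hairpins in each serum (red) and bone (blue) library, with black bars for group means. For all 6 the tissues do not overlap, and miR-142 goes from 9.14 to 21.3% in bone to 88.4 to 95% in serum.

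The tissue difference was then set beside that of other rats of the series, which share no library with it. In placebo-treated ZDF rats, 163 of the 168 miRNAs called in WT within that joint fit had the same direction, and in PTH-treated WT rats it was 153 of 153. Over the 229 and 233 miRNAs tested, the differences correlated with r = 0.943 and r = 0.923 between the groups (description across miRNAs, which are not independent). In tests of the difference between the contrasts, edgeR called 0 of 229 miRNAs for ZDF and 0 of 233 for PTH, with 22 (9.61%) and 24 (10.3%) at an unadjusted p below 0.05 and smallest adjusted p of 0.202 and 0.296. Leaving out serum 2 gave 1 call for ZDF, and leaving out bone 1 gave 4 for PTH.

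For the leading miRNAs the differences are given side by side. MiR-196b-5p gave -6.24 in placebo-treated WT rats, -6.69 in placebo-treated ZDF rats and -6.04 in PTH-treated WT rats, and miR-199a-5p gave -5.20, -5.61 and -6.07. MiR-486 gave 4.43, 4.15 and 3.70, and miR-92a-3p gave 4.21, 3.86 and 5.14. MiR-133a-3p gave -3.54, -5.35 and -1.96. The arm shift of miR-142 was also there, at 80.1 to 94.7% 5p in serum and 8.81 to 14.1% in bone of ZDF rats, and at 86.6 to 95.7% and 7.68 to 23.1% in PTH-treated WT rats.

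**Figure D5:**
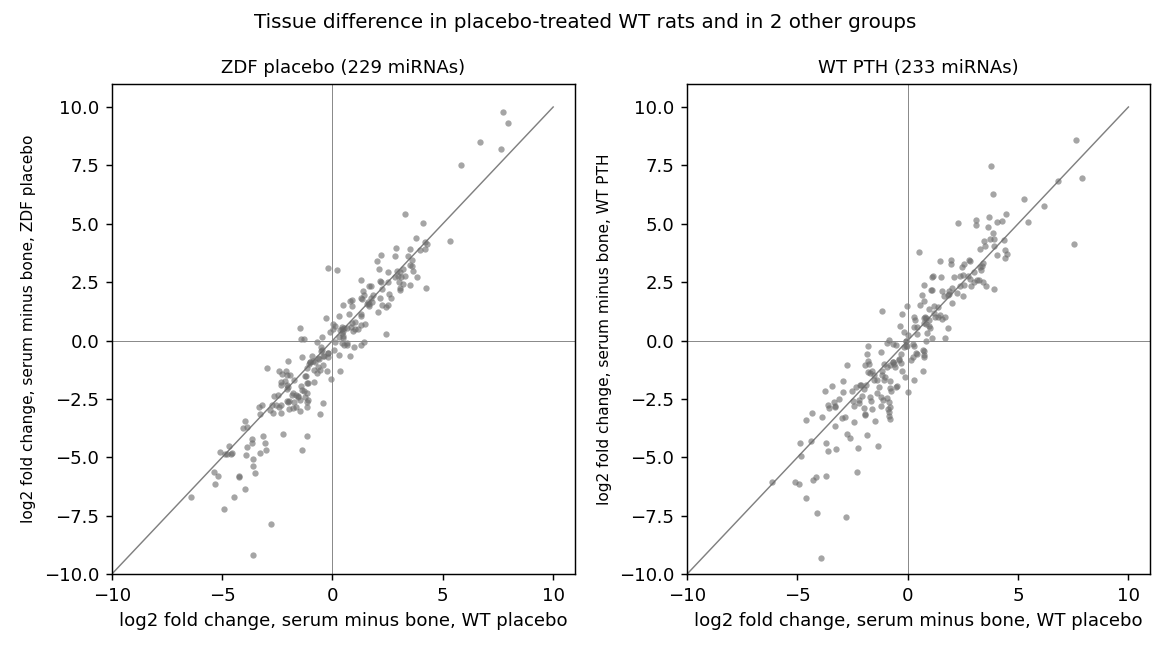
Log2 difference, serum minus bone, of each tested miRNA in placebo-treated WT rats (horizontal axis) against that in placebo-treated ZDF rats (left, 229 miRNAs) and in PTH-treated WT rats (right, 233 miRNAs), with the line of equality. The points follow the line (r = 0.943 and 0.923), and no miRNA departed from it at an FDR below 0.05.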

How the data were processed

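Small RNA was sequenced after RNA extraction from a fixed volume of serum and from ground ulna bone, with the same library kit. The authors trimmed the reads with cutadapt, mapped them with Bowtie to the rat genome and to miRBase with 1 mismatch allowed, and deposited whole-number read counts per mature miRNA, without normalization, and RPM values relative to the full read number of a library, from which the library totals were obtained here. Spike-in controls were left out of the miRNA counts.

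Counts were analysed with R 4.3.3, edgeR 4.0.16 (TMM, filterByExpr, quasi-likelihood test) and limma 3.58.1 (arm ratios, log2 with a pseudocount of 0.5), and DESeq2 1.42.0 was an alternative. Calls used Benjamini-Hochberg adjusted p (FDR) below 0.05. The study's 0.2 and its filter were alternatives. The alternative with 8 groups in one fit used serum and bone of both WT and ZDF rats, each on placebo or PTH. It thus added ZDF rats on PTH, where by the paper's account not every bone came from a rat that gave serum. The filter filterByExpr was preferred because of an earlier treatment of these data. There, the quasi-likelihood fit with all miRNAs that had a read called miRNAs in data simulated without change. Independent filtering rests on the same fit. Single miRNAs and library measures were compared by two-sided exact permutation tests (log2(CPM + 1) for miRNAs). Scripts were tested on simulated data. The lists, the miRNAs and the comparisons were chosen with earlier results of these data known. MiRNAs named are the 10 with the largest difference in each direction that did not overlap and had 10 reads in every library of the higher tissue, the 8 most abundant of each tissue and up to 6 members of each list, and for arm ratios the 6 largest changes without overlap; names outside this rule are marked in the text. Intervals and floors (3 reads) cover counting error only, since PCR copies are not separate molecules. Counts of the 9 libraries differed between replicates by far more than counting error. P-values measure the spread between these samples, which the labels do not tie to single animals. Coordinates are not given, as the sequence table is on GRCr8 and the files are on another build.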

Additional observations from a re-analysis of the deposited data

Results flagged for a closer look

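Single libraries stood apart within a tissue in 15 of 192 sets of libraries tested for the distance of the highest or lowest one to its neighbour relative to the range (chance gives about 1 in 20 of such sets). The ratio of that distance to the range is given in parentheses. Bone 2 was the highest bone for miR-195-5p (0.978, 2734 CPM), miR-322-5p (0.947, 893 CPM), miR-497-5p (0.88, 12867 CPM) and miR-322-3p (0.841, 225 CPM), and the most 5p-rich bone for miR-361 (0.931). Bone 1 was the highest bone for miR-136-3p (0.949, 282 CPM) and miR-25-3p (0.875, 6105 CPM), the lowest for miR-434-3p (0.916, 71.8 CPM), and the one with least 5p for miR-142 (0.862). Bone 3 was the lowest for miR-1-3p (0.858, 857 CPM) and bone 4 the lowest for miR-20a-5p (0.843). Among the sera, miR-338-3p had no read in serum 2 (0.92), miR-378a-3p was highest in serum 3 (0.811, 12197 CPM), miR-29a-3p was highest in serum 5 (0.80, 52613 CPM), and miR-322 had the most 5p in serum 5 (0.717).

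Reads of the synthetic extraction controls, which the study's methods name for serum, were also present in the bones, with 36, 26, 23 and 8 reads in bone 1 to bone 4. The sera held 136098 to 782737 such reads.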

How the results depend on the processing

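No paired analysis was possible because no label ties a bone to a serum. Of the 72 miRNAs named and called, 51 were tested in each of the 23 alternatives, and of these 29 kept direction and call in every one and 44 in all but the scaling to all reads; the other 21 were not tested in at least 1 alternative. Leaving out 1 library moved 26 of the 72 by more than 1.5-fold, at most 5.57-fold (miR-429 without bone 4), and each of the 26 was still called in those fits. The number of miRNAs called was 231 (98 higher in serum, 133 in bone) with independent filtering and 132 to 157 when 1 library was left out, and between 116 (against a fold change of 2) and 220 (all miRNAs with a read) under the others; DESeq2 called 211. The median difference moved by -0.18 with miRNA read totals and by -2.46 with totals of all reads. The latter reversed miR-16-5p (-0.93), miR-15a-5p (-0.97), miR-150-5p (-1.25), miR-342-3p (-0.28), miR-200c-3p (-1.05), miR-322-3p (-1.19), miR-126a-5p (-1.86), miR-320-3p (-0.96), miR-138-5p (-0.40), the leukocyte (-1.25), nervous system (-2.13) and serum reference (-0.94) lists, and, among those not called, miR-144-5p (-2.40), miR-146a-5p (-2.003), miR-140-3p (-2.42), miR-29a-3p (-2.38) and miR-208b-3p (-2.58). Scaling to all reads also removed the call of 14 named miRNAs that stayed higher in serum. They were miR-451-5p (1.00, adjusted p = 0.114 by edgeR), miR-144-3p, miR-19b-3p, miR-25-3p, miR-93-5p, miR-17-5p, miR-20a-5p, miR-15b-5p, miR-223-3p, miR-429, miR-141-3p, miR-375-3p, miR-330-3p and miR-128-3p. Independent filtering put the nervous system list at -1.29 with more members tested. The other reversals were of values near 0. They were miR-144-5p with RLE (-0.023), read totals (-0.11), all miRNAs or independent filtering (-0.021), DESeq2 (-0.060) and no muscle list (-0.011), miR-140-3p with all miRNAs or independent filtering (-0.025) and no muscle list (-0.00052), miR-208b-3p with read totals (-0.058), all miRNAs or independent filtering (-0.023) and DESeq2 (-0.043), and miR-29b-3p with 8 groups (0.0052), thinning (0.013) and no erythrocyte list (0.050). Leaving out 1 library gave -0.17 to 0.54 for miR-144-5p, -0.73 to 0.041 for let-7g-5p, -0.18 to 0.16 for miR-29b-3p, -0.64 to 0.062 for miR-29c-3p, -1.32 to 0.56 for miR-208b-3p and -1.28 to 0.051 for miR-499-5p. The arm ratio was called in 16 to 30 hairpins. The contrast of contrasts called 2 miRNAs for ZDF with all miRNAs with a read and 0 to 1 with 1 library left out, and 0 to 4 for PTH. The difference in miRNA reads was -514748 to -262386 and that in miRNAs detected at equal depth -24.5 to -17.0 with 1 library left out, and p was above 0.05 in 7 of 9 cases for each; with 3 bones left the smallest exact p is 0.0357. The cause was not tested for any of these. Depth limits the rare miRNAs: a floor of 3 reads is 3.15 to 46.2 CPM before TMM scaling.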

Other observations

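The 10 miRNAs often used as references in serum studies did not have one common behaviour between serum and bone. Of these 10, 6 were higher in serum, 1 was higher in bone and 3 did not pass the test, with a median of 1.88. Among all 222 miRNAs, 32.9% were higher in serum and 33.8% in bone. Together the 10 took 20.9 to 33.2% of the serum reads and 5.80 to 8.70% of the bone reads. MiR-320-3p was higher in serum by 1.87 (SE 0.45, adjusted p = 0.00161 by edgeR), with 5596 to 14590 CPM in serum and 918 to 3692 CPM in bone.

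The endothelial list had calls in both directions, near the shares over all miRNAs. Of 4 tested members, 1 (miR-126a-5p) was higher in serum, 1 in bone and 2 did not pass. Over all 222 miRNAs, 32.9% were called higher in serum and 33.8% higher in bone. The list took 1.09 to 2.31% of the serum reads and 1.97 to 2.44% of the bone reads. No member was called higher in serum with RLE, read totals, totals of all reads, all miRNAs with a read, independent filtering, the 8 groups in one fit, DESeq2, the muscle list left out or a test against a fold change of 2, nor without serum 1, serum 5, bone 2, bone 3 or bone 4.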
